A study of Mus musculus with 12 samples.

Results

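Genes of the proteasome and immunoproteasome were followed across uterus and oviduct of mice given estradiol (E2) in early pregnancy. They were chosen by name: every gene whose single annotated symbol began with Psm and a letter from a to g was taken. Where a gene had several probe sets, the brightest on average stood for it. This gave 50 of the 19938 genes measured. Within the rule only that average used measured values, but the rule was set with earlier results of these data known. The 50 held 5 immunoproteasome genes (Psmb8, Psmb9, Psmb10, Psme1 and Psme2), 31 constitutive subunits (14 of the 20S core and 17 of the 19S particle) and 14 other genes. Among those 14, Psmc3ip and Psme3ip1 share the name but are no proteasome subunits. The contrast between the 5 and the 31 was drawn with earlier results of these data known, so it is given as a description.

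Mice were injected under the skin on days 0.5, 1.5 and 2.5 of pregnancy with E2 at 10 µg/kg in 100 µl of sesame oil, or with the oil alone (0 µg/kg), and were dissected on day 3.5. Oviducts and uterine horns were flushed, so that embryos were washed out, and total RNA of the whole tissue was measured on 12 Affymetrix mouse gene arrays. There were thus 4 groups of 3 biological replicates: uterus and oviduct of mice given oil, and uterus and oviduct of mice given E2. The sources used here do not give the strain or age of the mice, how many were behind a replicate, or whether equal replicate numbers share a mouse. In whole tissue, fewer cells of a type and less RNA per cell cannot be told apart.

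The proteasome degrades proteins that have been marked with ubiquitin. Its 20S core is a barrel of alpha and beta rings, and Psmb5, Psmb6 and Psmb7 encode the beta subunits that cut peptide bonds. The 19S particle, built from Psmc ATPases and Psmd subunits, binds ubiquitin-marked proteins, unfolds them and feeds them into the core. Interferon gamma induces Psmb8, Psmb9 and Psmb10, whose products take the places of Psmb5, Psmb6 and Psmb7 in newly assembled cores, and the 11S activator made of Psme1 and Psme2. These immunoproteasomes supply peptides for display on MHC class I and are abundant in leukocytes.

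The starts of 3 of the immunoproteasome genes are shown because 2 of them hold a match to an interferon-related motif and the other is shared with a peptide transporter gene. Each window runs from 250 bases before to 50 bases after the RefSeq start on GRCm38.p6, 5′ to 3′ on the gene's strand, with motif matches in capitals. The motifs searched on both strands were the interferon-stimulated response element (ISRE, GAAANNGAAA), the gamma-activated site (GAS, TTCNNNGAA) and the antioxidant response element (ARE, TGACNNNGC). The windows lie at chr17:34197945-34198244 on the plus strand (Psmb8), chr17:34187281-34187580 on the minus strand (Psmb9) and chr14:55578244-55578543 on the plus strand (Psme1).
Psmb8: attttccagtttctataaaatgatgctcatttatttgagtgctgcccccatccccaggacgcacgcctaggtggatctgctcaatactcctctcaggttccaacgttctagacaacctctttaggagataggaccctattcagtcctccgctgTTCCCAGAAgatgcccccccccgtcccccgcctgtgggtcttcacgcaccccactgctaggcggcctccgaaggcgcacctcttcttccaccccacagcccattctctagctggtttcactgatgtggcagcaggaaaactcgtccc
Psmb9: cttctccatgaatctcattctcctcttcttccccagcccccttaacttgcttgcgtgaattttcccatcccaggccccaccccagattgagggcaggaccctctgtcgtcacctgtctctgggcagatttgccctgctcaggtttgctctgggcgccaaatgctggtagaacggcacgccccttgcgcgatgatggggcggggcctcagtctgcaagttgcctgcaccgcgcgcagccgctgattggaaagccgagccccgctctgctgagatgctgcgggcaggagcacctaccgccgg
Psme1: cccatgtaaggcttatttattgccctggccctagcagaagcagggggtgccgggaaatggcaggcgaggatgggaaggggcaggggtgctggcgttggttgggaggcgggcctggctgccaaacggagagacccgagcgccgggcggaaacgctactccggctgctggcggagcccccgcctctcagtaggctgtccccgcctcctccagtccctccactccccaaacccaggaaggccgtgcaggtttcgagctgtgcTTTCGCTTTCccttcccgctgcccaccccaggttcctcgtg

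Psmb8 held a GAS match, TTCCCAGAA, at positions -97 to -89 from the start, and Psme1 an ISRE match, TTTCGCTTTC on the printed strand, at positions 10 to 19. No match to the 3 motifs was found in the windows of Psmb9, Psmb10 and Psme2. Of the Psmb9 window, 275 of 300 bases are also part of the window of Tap1, which is read from the opposite strand and encodes a subunit of the transporter that carries peptides into the endoplasmic reticulum. Over all 32851 RefSeq windows of this length, 3.44% held an ISRE match, 8.3% a GAS match and 12.4% an ARE match. These shares count every window, so a gene with several starts can count more than once. For the 50 genes 1 window per gene was kept, that of the outermost start. Windows were given for 42 of the 50 genes, of which 5 held an ISRE match, 3 a GAS match and 6 an ARE match. Among the 25 constitutive subunits with a window, 2, 1 and 4 did. Such a match is a description of the sequence, not evidence of a bound site.

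Array medians lay between 89.5 and 92.9 in intensity (log2 6.48 to 6.54). The tissue labels were borne out by marker genes: Foxj1, Dnah5 and Pax8 were higher, and Hoxa10, Hoxa11 and Hand2 lower, in oviduct than in uterus of oil mice (3 of 3 in each case). Of the 50 genes, 3 lay below the median over genes (log2 6.92) on every array. The mean of 9 lay below the brightest Y-linked probe set, that of Sry at log2 7.50, and that of Psma8 alone lay below the brightest other Y-linked gene, at 5.36. Oil replicate 3 was unlike the other oil arrays. By over 1 log2 unit, 177 of its genes in uterus and 302 in oviduct deviated from the average of replicates 1 and 2. Its 16 interferon-stimulated genes had a median of -0.78 against those arrays in uterus (16 of 16 below) and -0.84 in oviduct (15 of 16 below). Its immunoproteasome genes lay lower too, by a median of -0.20 in uterus and -0.10 in oviduct (4 of 5 below in each). General leukocyte markers were also lower in it, with medians of -0.59 in uterus and -0.79 in oviduct, as were MHC class II genes (-1.05 and -0.95), NK cell markers (-1.29 and -0.19) and macrophage markers (-0.18 and -0.60). Other marker lists were not lower in both tissues. Medians in uterus and oviduct were 0.24 and -0.26 for T cell markers and 0.08 and -0.14 for B cell markers. They were 0.09 and -0.09 for neutrophil markers and 0.49 and 0.19 for smooth muscle markers. The part of these cells in its lower immunoproteasome levels was not tested. Its constitutive subunits had medians of 0.09 and 0.03 against the other oil arrays. In its oviduct, 4 corpus luteum markers lay a median of 3.93 above the other 2 arrays. Results are therefore also given without this replicate.

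The first question was which of these genes E2 changed in the uterus. E2 uterus had more Psmb8, Psmb9, Psmb10 and Psme1 mRNA than oil uterus, by 21.8 to 31.2%, while Psme2 did not pass the test. In the opposite direction, 15 of the other 45 genes fell, by up to 32.8%, most of them 19S subunits and assembly factors. Each gene was tested with limma in a fit over all 19938 genes, with Benjamini-Hochberg adjustment over all of them and a threshold of 0.05. By that test 26.7% of all genes changed in the uterus, 12.4% higher and 14.3% lower. Levels below are log2 intensities, and differences are log2 differences with the standard error (SE) of the fit.

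Psmb8 read 7.11, 6.92 and 6.77 in oil uterus and 7.08, 7.29 and 7.37 in E2 uterus. The ranges met, since E2 replicate 1 lay just below oil replicate 1. The difference was 0.32 (SE 0.11, adjusted p = 0.0482 by limma). Psmb9 read 8.09, 8.10 and 7.78 in oil uterus and 8.33, 8.52 and 8.30 in E2 uterus. All 3 E2 arrays lay above all 3 oil arrays, with a difference of 0.39 (SE 0.10, adjusted p = 0.00981 by limma). Psmb10 read 7.78, 7.72 and 7.56 in oil uterus and 7.81, 8.14 and 8.15 in E2 uterus. The groups did not overlap, though E2 replicate 1 lay close to oil replicate 1, and the difference was 0.34 (SE 0.10, adjusted p = 0.0209 by limma).

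Psme1, the first subunit of the 11S activator, read 8.62, 8.44 and 8.47 in oil uterus and 8.79, 8.85 and 8.74 in E2 uterus. The groups did not overlap, and the difference was 0.28 (SE 0.09, adjusted p = 0.0294 by limma). Its partner Psme2 read 9.56, 9.53 and 9.61 in oil uterus and 9.64, 9.59 and 9.58 in E2 uterus, so that the groups overlapped. Its difference was 0.03 (SE 0.07, adjusted p = 0.788 by limma). A further probe set annotated to both Psme2b and Psme2, and therefore not counted among the 50, differed by 0.26 (SE 0.08, adjusted p = 0.0533 by limma over all 35556 probe sets).

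Of the 4 genes that rose, Psmb9 passed with each of the 12 arrays left out in turn. Psmb8 lost its call in 9 of those 12 fits, Psme1 in 4 and Psmb10 in 3. With both oil replicate 3 arrays left out, Psmb9 and Psme1 passed, with differences of 0.29 (adjusted p = 0.0249 by limma) and 0.27 (adjusted p = 0.0238). Psmb8 and Psmb10 then kept differences of 0.23 (adjusted p = 0.166) and 0.28 (adjusted p = 0.0785). Single arrays also decided the count of 4, which became 1 without oil uterus replicate 3 (where Psme1 too lost its call) or E2 uterus replicate 2, and 2 without oil uterus replicate 2 or E2 uterus replicate 3.

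The catalytic subunits that Psmb8, Psmb9 and Psmb10 replace did not pass the test in either direction. Psmb5 read 10.36, 10.02 and 10.21 in oil uterus and 10.13, 10.24 and 10.27 in E2 uterus, overlapping groups with a difference of 0.01 (SE 0.10, adjusted p = 0.948 by limma). Psmb6 read 8.81, 8.72 and 8.91 in oil uterus and 8.55, 8.64 and 8.63 in E2 uterus, with a difference of -0.21 (SE 0.08, adjusted p = 0.0893). Psmb7 read 8.76, 8.75 and 8.74 in oil uterus and 8.39, 8.56 and 8.70 in E2 uterus, with a difference of -0.20 (SE 0.11, adjusted p = 0.206). For both, every E2 array lay below every oil array, yet neither passed the test. Within each array, the log2 ratio of an immunoproteasome subunit to its counterpart was then taken and set to a mean of 0 over the 12 arrays. It was 0.22 ± 0.17 (SD, n = 3) in oil uterus and 0.52 ± 0.08 (SD, n = 3) in E2 uterus for Psmb8 over Psmb5. For Psmb9 over Psmb6 it was -0.12 ± 0.27 (SD, n = 3) and 0.48 ± 0.11 (SD, n = 3). For Psmb10 over Psmb7 it was -0.16 ± 0.11 (SD, n = 3) and 0.38 ± 0.09 (SD, n = 3). In all 3 pairs the E2 and oil uterus arrays did not overlap. No test was made of these ratios, and 3 arrays against 3 cannot give an exact p below 0.1.

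**Figure D1:**
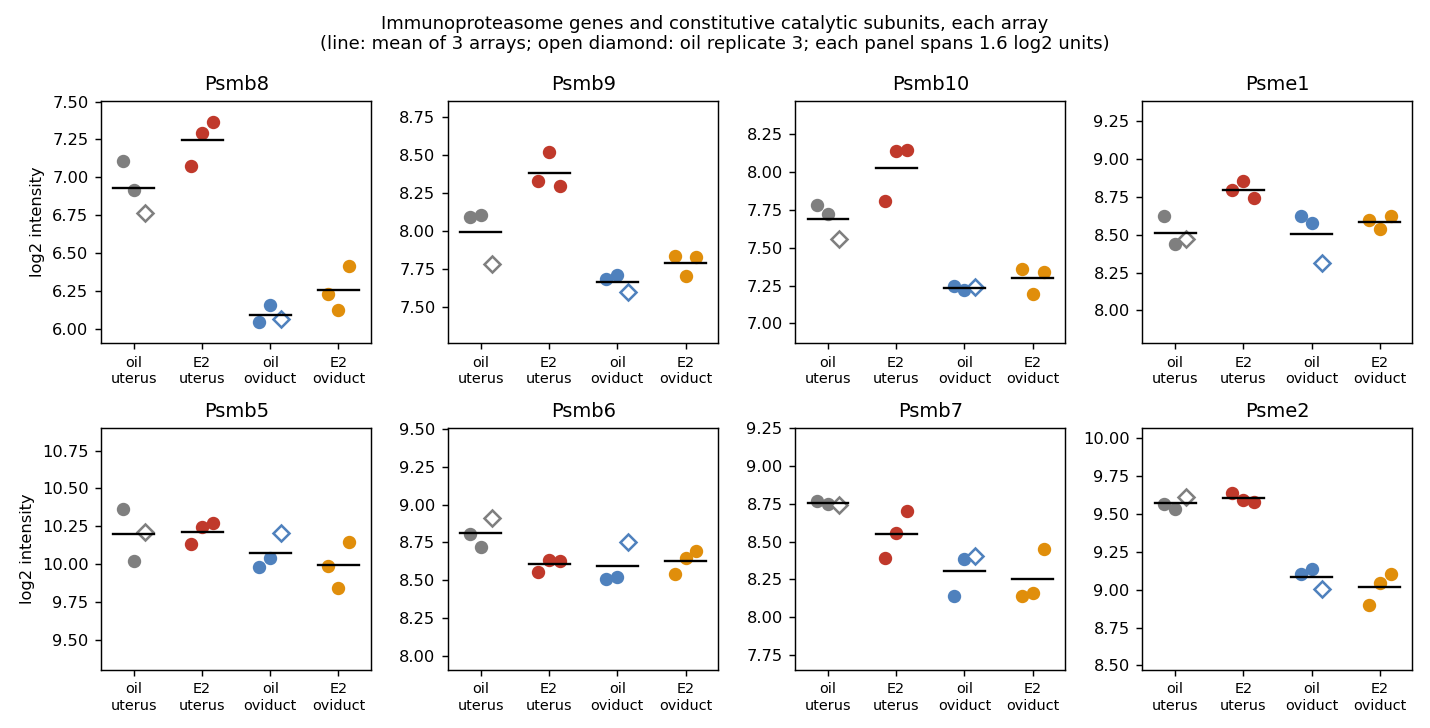
Log2 intensity (vertical axis, each panel spanning the same number of log2 units) of the 5 immunoproteasome genes and of Psmb5, Psmb6 and Psmb7 in the 12 arrays, by group. Points are arrays, open diamonds oil replicate 3 and lines the mean of 3 arrays. Psmb9, Psmb10 and Psme1 lie higher in all 3 E2 uterus arrays than in any oil uterus array, Psmb8 overlaps at 1 array, and Psme2 overlaps between oil and E2 uterus.

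The constitutive subunits that passed in E2 uterus were all lower. Of the 31 constitutive subunits 11 fell, 0 rose and 20 did not pass, with a median difference of -0.19, against -0.00070 over all genes tested. In the 20S core, 2 of 14 subunits fell: Psma4 of the alpha ring (-0.24) and Psmb4 of the beta ring (-0.27). That share of the core equals the 14.3% of all genes that fell. In the 19S particle 9 of 17 fell. These were the ATPases Psmc4 (-0.36) and Psmc5 (-0.42), and 7 of the 11 Psmd subunits, namely Psmd1, Psmd2, Psmd6, Psmd11, Psmd12, Psmd13 and Psmd14. Psmd2 had 2 probe sets, which both gave -0.27. The share of 19S subunits that fell, 9 of 17, stood beside 14.3% of all genes. Without oil replicate 3, the count of constitutive subunits that fell was 10 and the median -0.16. The core then had 3 of 14 lower (median -0.14, and -0.11 in the full data). The 19S particle then had 7 of 17 lower (median -0.19, and -0.22 in the full data), beside 14.5% of all genes. In the full data 12 of 14 core and 16 of 17 19S estimates lay below 0, beside 9999 of all 19938 genes.

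Psmd14, the 19S subunit that strips ubiquitin chains from substrates, read 9.70, 9.62 and 9.56 in oil uterus and 9.02, 9.18 and 9.18 in E2 uterus. The groups lay well apart, with a difference of -0.50 (SE 0.08, adjusted p = 0.000521 by limma). Psmd12, a scaffold subunit of the 19S lid, read 9.02, 8.99 and 9.10 against 8.54, 8.63 and 8.66, a difference of -0.43 (SE 0.07, adjusted p = 0.00126). Psmd1, a large scaffold subunit of the 19S base, read 10.50, 10.49 and 10.66 against 10.04, 10.22 and 10.21, a difference of -0.40 (SE 0.07, adjusted p = 0.00157). All 3 had every E2 array below every oil array. The ATPase subunit Psmc5 read 7.58, 7.47 and 7.86 in oil uterus and 7.14, 7.19 and 7.31 in E2 uterus. Oil replicate 3 was its highest array, and the difference was -0.42 (SE 0.09, adjusted p = 0.00565 by limma), or -0.31 without that replicate (adjusted p = 0.0117).

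Psmg1 and Psmg2 form a chaperone on which the alpha ring is assembled, and both fell in E2 uterus. Psmg2 read 8.21, 8.19 and 8.39 in oil uterus and 7.51, 7.77 and 7.79 in E2 uterus. The groups did not overlap, and its difference of -0.57 (SE 0.12, adjusted p = 0.00363 by limma) was the most negative of the 50 genes. Psmg1 read 7.71, 7.55 and 7.74 against 7.13, 7.35 and 7.32, again without overlap, with a difference of -0.40 (SE 0.08, adjusted p = 0.00199). The chaperones Psmg3 and Psmg4 gave -0.01 and -0.07 and did not pass. Of the 19S assembly chaperones Psmd5, Psmd9 and Psmd10, Psmd5 fell by 0.36 on the log2 scale. The nuclear activator subunit Psme3 fell by 0.37, and the activator Psme4 (-0.00) and the inhibitor Psmf1 (-0.11) did not pass. The tissue-restricted core subunits Psma8, of the testis, and Psmb11, of the thymus, gave -0.54 (adjusted p = 0.0598) and -0.05 at levels near the background. Psmc3ip (-0.36, adjusted p = 0.052) and Psme3ip1 (-0.09) did not pass either.

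Of the 15 genes that fell, 13 also fell without oil replicate 3, and Psmd6 and Psmd11 did not pass there. Psma8, Psmb3, Psmc3ip and Psmf1 passed only in that fit. These counts stand beside 14.5% of all genes lower and 13.5% higher in that fit. In the full data, E2 and oil uterus arrays did not overlap for 3 of the 50 genes higher and 24 lower. Of all 19938 genes, 3794 were higher and 4277 lower without overlap, which is 40.5% for both directions together.

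**Figure D2:**
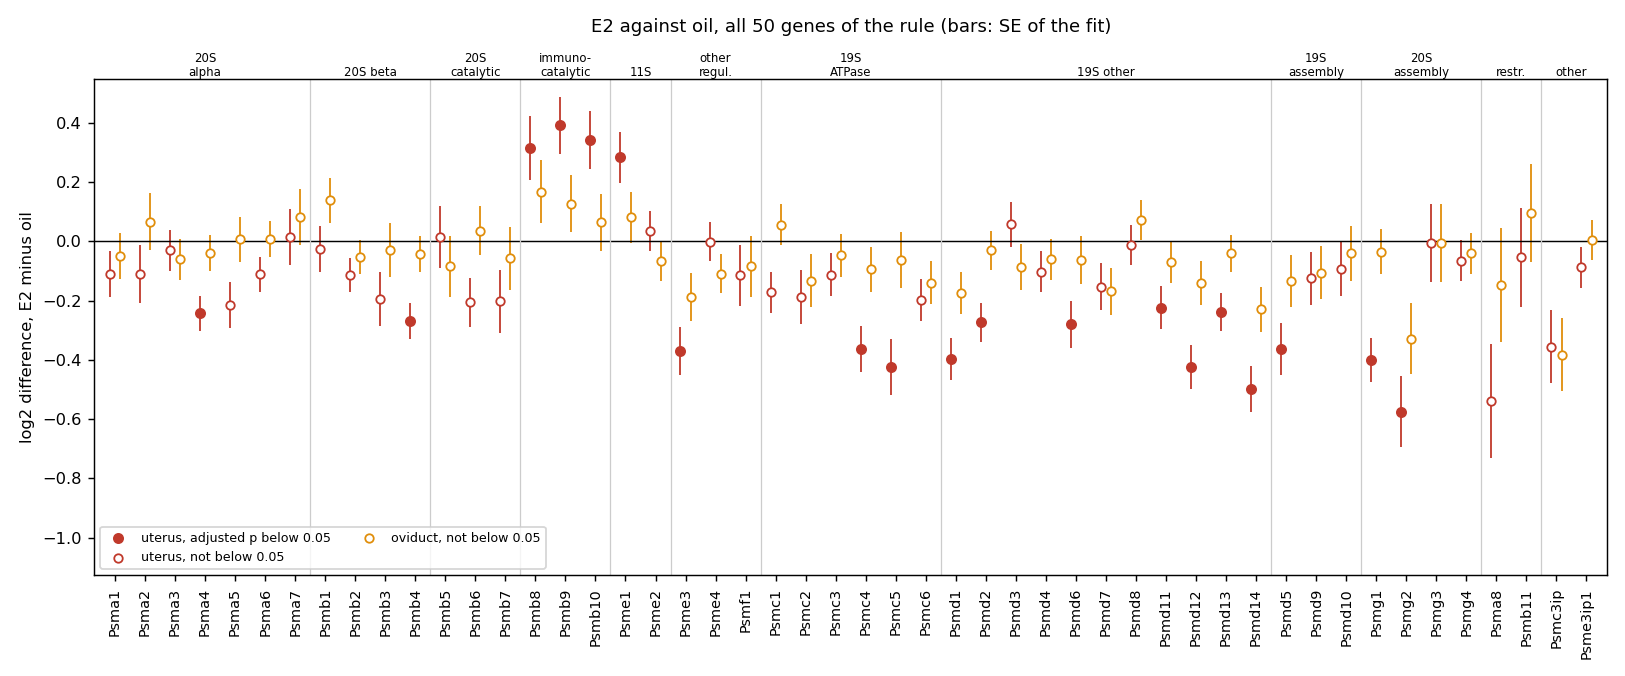
Log2 difference E2 minus oil (vertical axis, bars SE of the fit) in uterus and oviduct for each of the 50 genes, ordered by role along the horizontal axis. Filled points have an adjusted p below 0.05. In uterus 4 immunoproteasome genes are filled above 0 and 15 other genes below it, and no oviduct point is filled.

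The median difference of the 5 immunoproteasome genes in uterus was 0.32, which lay 0.51 above the median of the constitutive subunits. Array by array, the median deviation of the 5 from their means over all arrays, minus that of the 31, was 0.02, 0.02 and -0.27 in oil uterus. It was 0.38, 0.55 and 0.29 in E2 uterus, above every oil uterus array. In oil oviduct it was -0.20, -0.17 and -0.25, and in E2 oviduct -0.05, -0.11 and -0.17. The oil and E2 oviduct arrays overlapped, since E2 replicate 3 lay just below oil replicate 2. Leaving out each array in turn kept the uterine gap between 0.43 and 0.57, though only the uterus arrays could change it in this fit.

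**Figure D3:**
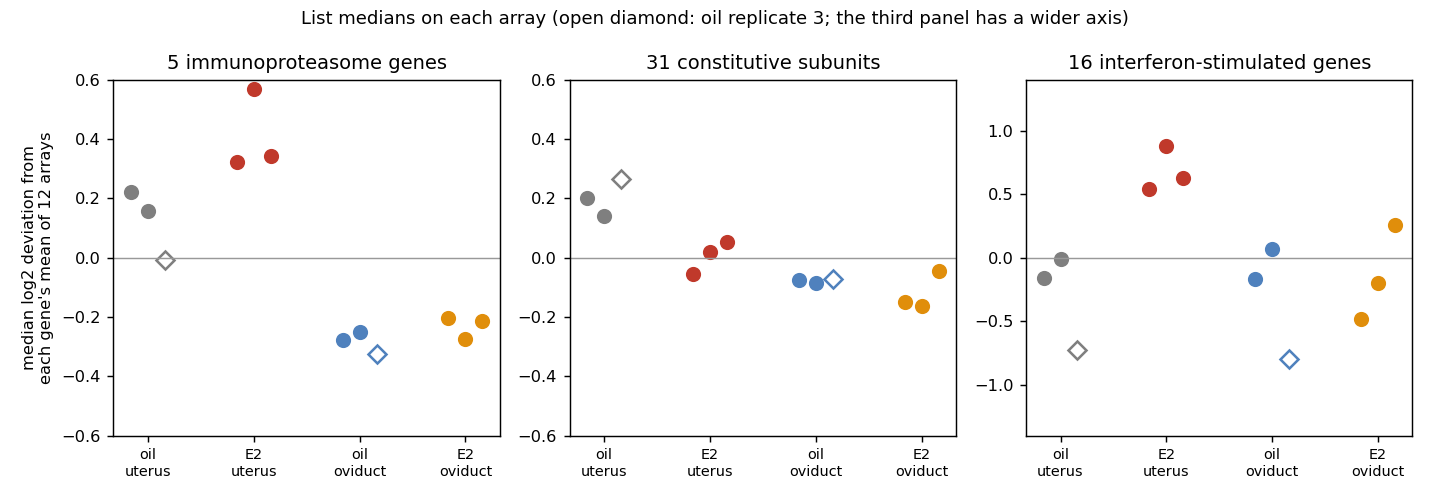
Median log2 deviation of 3 gene lists from each gene's mean over 12 arrays (vertical axis), 1 point per array in 4 groups, with open diamonds for oil replicate 3. The third panel has a wider axis. The immunoproteasome genes and the interferon-stimulated genes are highest in E2 uterus, and the constitutive subunits are highest in oil uterus.

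The genes around the proteasome in antigen display and interferon signalling were read in the same fit. The counts below stand beside 12.4% of all genes higher and 14.3% lower. Of 10 measured antigen processing genes 2 rose and 3 fell in E2 uterus, with a median of 0.19. Tap1, whose start region overlaps that of Psmb9, rose by 0.50 (SE 0.13, adjusted p = 0.0145 by limma), and the peptide editor Tapbpl rose by 0.40. For Tap1, oil uterus replicate 3 lay at -0.54 against the mean of the other oil uterus arrays. The endoplasmic reticulum chaperones Calr, Pdia3 and Canx, which help fold MHC class I, were the 3 that fell, with differences of -0.57, -0.37 and -0.30. Of 13 interferon signalling genes 6 rose and 1 fell. The interferon gamma receptor chains Ifngr1 and Ifngr2 rose by 0.39 and 0.46, the transcription factor Irf1 rose by 0.46, and the kinase Jak1 fell by 0.42. Ifng itself gave 0.17 (adjusted p = 0.15), a gene chosen after its value was seen. Its signal was low, at 5.69 to 5.98 on all 12 arrays, below the median over genes (log2 6.92). Of 16 interferon-stimulated genes 11 rose and 0 fell, with a median of 0.85. Ifit3 (2.17), Mx1 (1.76), Oas2 (1.73) and Irf7 (1.34) had the largest differences. When oil replicate 3 was left out, the interferon-stimulated count was again 11 and the median 0.58. Of all genes, 13.5% rose and 14.5% fell in that fit. In that fit 3 antigen processing genes rose and 3 fell, with a median of 0.14. Of the interferon signalling genes 5 then rose and 1 fell, with a median of 0.26.

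Genes that regulate the proteasome or deliver substrates to it followed neither set as a whole. Of 17 measured, 1 rose and 4 fell in E2 uterus, with a median of -0.12, beside 12.4% of all genes higher and 14.3% lower. The thioredoxin-like 19S partner Txnl1 (-0.44), the ubiquitin shuttle Rad23b (-0.37), the proteasome-bound deubiquitinase Usp14 (-0.35) and the unfolding ATPase Vcp (-0.23) fell. Zfand5, a proteasome activator, rose by 0.30. Nfe2l1, the transcription factor that induces proteasome genes, gave 0.10 (SE 0.07, adjusted p = 0.366 by limma); it too was named after its value was seen.

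Markers of other cells moved with these genes in E2 uterus, where 12.4% of all genes rose and 14.3% fell. Of 5 general leukocyte markers 3 rose, and their summed intensity was 1434 to 2278 in oil uterus and 2939 to 3014 in E2 uterus. Of 9 macrophage markers 7 rose, with a median of 0.74 and sums of 2217 to 2669 in oil and 3830 to 4258 in E2 uterus. Of 7 genes of MHC class II antigen-presenting cells 2 rose, with sums of 1508 to 4214 and 5600 to 6395. The lowest of these oil sums in the general leukocyte, macrophage and MHC class II lists all came from oil replicate 3. Without it, 4 of 5 leukocyte, 8 of 9 macrophage and 5 of 7 MHC class II genes rose, with medians of 0.43, 0.63 and 0.47. Of all genes, 13.5% then rose and 14.5% fell. All 7 epithelial markers rose and all 5 endothelial markers fell, with and without that replicate. Of 5 T cell, 5 neutrophil and 5 smooth muscle markers 1, 1 and 2 rose, and 0 of 3 B cell and 0 of 5 NK cell markers passed. Without oil replicate 3 the smooth muscle count became 4 and the NK cell count 1. No marker had an intensity of 0, since the lowest intensity of any probe set was 1.52. The part of these cells in the changes of the proteasome genes was not tested.

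The second question was whether the oviduct answered E2 in the same way. There, 0 of the 50 genes passed, in a tissue where 0.291% of all genes did. At an unadjusted p below 0.05, 5 of the 50 passed (Psmc3ip, Psmd1, Psmd14, Psme3 and Psmg2, all lower), beside 10.5% of all genes. Array weights and every other setting tried also gave 0 of 50.

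Psmb8 read 6.04, 6.16 and 6.06 in oil oviduct and 6.23, 6.13 and 6.41 in E2 oviduct. The groups overlapped, with a difference of 0.17 (SE 0.11, adjusted p = 0.643 by limma). Psmb9 read 7.68, 7.71 and 7.60 against 7.83, 7.70 and 7.83, a difference of 0.13 (SE 0.10, adjusted p = 0.706). Psmb10 read 7.24, 7.22 and 7.24 against 7.36, 7.20 and 7.34, a difference of 0.06 (SE 0.10, adjusted p = 0.877). Each of the 3 had at least 1 E2 array inside or below the oil range. Psme1 read 8.62, 8.57 and 8.32 in oil oviduct and 8.60, 8.54 and 8.63 in E2 oviduct, a difference of 0.08 (SE 0.09, adjusted p = 0.802). Psme2 read 9.11, 9.14 and 9.01 against 8.90, 9.04 and 9.11, a difference of -0.07 (SE 0.07, adjusted p = 0.796). Both 11S subunits thus overlapped between oil and E2.

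Their constitutive counterparts overlapped as well. Psmb5 read 9.98, 10.04 and 10.20 in oil oviduct and 9.99, 9.84 and 10.14 in E2 oviduct. Psmb6 read 8.51, 8.52 and 8.75 against 8.54, 8.65 and 8.70, and Psmb7 read 8.14, 8.38 and 8.40 against 8.14, 8.16 and 8.45. Differences of these 3 lay between -0.08 and 0.04. The median over the constitutive subunits was -0.05 and over the immunoproteasome genes 0.08. Of 16 interferon-stimulated genes 0 passed in oviduct, with a median of 0.21 that turned to -0.11 without oil replicate 3, and 0 of 9 macrophage markers passed (8 at an unadjusted p below 0.05).

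The difference between the E2 effects, oviduct minus uterus, was tested as an interaction in the same fit, where 11.5% of all genes passed. Of the 5 immunoproteasome genes 0 passed, so a difference between the tissues was not shown for them. Their values were -0.15 for Psmb8 (adjusted p = 0.652 by limma), -0.26 for Psmb9 (adjusted p = 0.276), -0.28 for Psmb10 (adjusted p = 0.253), -0.20 for Psme1 (adjusted p = 0.373) and -0.10 for Psme2 (adjusted p = 0.625). At an unadjusted p below 0.05, 0 of these 5 and 11 of the 50 passed, beside 23.7% of all genes. Psmg1 was the 1 gene of the 50 that passed the adjusted test. It read 7.27, 7.26 and 7.30 in oil oviduct and 7.21, 7.22 and 7.30 in E2 oviduct, a difference of -0.03 beside -0.40 in uterus. The interaction was 0.36 (SE 0.11, adjusted p = 0.047 by limma), and 0.34 without oil replicate 3 (adjusted p = 0.0909). Leaving out any single array except oil uterus replicate 2 ended this call, with values between 0.30 and 0.42. Psmc5 had a like value of 0.36 (SE 0.13) but an adjusted p of 0.114.

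The third question was how the tissues differed, with and without E2. In oil mice, oviduct had less mRNA than uterus for 30 of the 50 genes and more for 1, where 21.5% of all genes were lower and 17.3% higher. In E2 mice 15 were lower and 1 higher, where 18.9% of all genes were lower and 15.2% higher. The comparison in oil mice shares the oil uterus arrays with the E2 comparison in uterus, and the comparison in E2 mice shares the E2 uterus arrays, so they are not independent of it.

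Psmb8 had the largest difference of the 50 genes in each treatment. From the values above, all 3 oviduct arrays lay below all 3 uterus arrays of the same treatment for Psmb8, Psmb9, Psmb10 and Psme2. In oil mice the difference was -0.84 for Psmb8 (SE 0.11, adjusted p = 6.33e-05 by limma), -0.33 for Psmb9 (adjusted p = 0.0166), -0.45 for Psmb10 (adjusted p = 0.00284) and -0.49 for Psme2 (adjusted p = 0.000138). In E2 mice it was -0.99 for Psmb8 (SE 0.11, adjusted p = 2.58e-05 by limma), -0.60 for Psmb9 (adjusted p = 0.000504), -0.73 for Psmb10 (adjusted p = 0.000122) and -0.59 for Psme2 (adjusted p = 4.51e-05). Psmb8 in E2 oviduct was thus at 0.504 times its level in E2 uterus. Psme1 differed by -0.01 in oil mice (adjusted p = 0.966) and by -0.21 in E2 mice (adjusted p = 0.0839), so that 4 of the 5 were lower in each treatment. In E2 mice its arrays did not overlap, and it passed without oil replicate 3 (adjusted p = 0.0303), which made 5 of 5.

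Constitutive subunits were also lower in oviduct, by less in the median. Single genes of the 2 sets overlapped: in oil mice the 31 ranged from -0.66 to 0.02 and the 5 from -0.84 to -0.01. In oil mice 21 of 31 were lower with a median of -0.28, and in E2 mice 9 of 31 with a median of -0.15. The median of the immunoproteasome genes was -0.45 in oil mice and -0.60 in E2 mice, which left a gap to the constitutive subunits of -0.18 and -0.45. Among the counterparts, Psmb7 was lower by 0.45 on the log2 scale in oil mice (adjusted p = 0.00557 by limma) and by 0.30 in E2 mice (adjusted p = 0.0476), where the arrays overlapped. The call in E2 mice was lost with 8 of 12 arrays left out in turn, without both oil replicate 3 arrays (adjusted p = 0.0514), with arrays centred on their median and with E2 mice fitted alone. Psmb5 and Psmb6 passed in neither. The Psmb8 to Psmb5 ratio was -0.50 ± 0.14 (SD, n = 3) in oil oviduct and -0.24 ± 0.02 (SD, n = 3) in E2 oviduct on the centred scale, below all uterus arrays and without overlap between oil and E2. The Psmb9 to Psmb6 ratio was -0.23 ± 0.19 (SD, n = 3) and -0.14 ± 0.12 (SD, n = 3), and the Psmb10 to Psmb7 ratio -0.17 ± 0.15 (SD, n = 3) and -0.05 ± 0.16 (SD, n = 3). These overlapped between oil and E2 oviduct, and with oil uterus.

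Other members showed their own tissue patterns. Psma5, an alpha ring subunit, read 8.24, 8.18 and 8.34 in oil uterus and 7.61, 7.49 and 7.68 in oil oviduct, a difference of -0.66 (SE 0.08, adjusted p = 3.06e-05 by limma). It read 8.01, 8.09 and 8.01 in E2 uterus and 7.49, 7.61 and 7.70 in E2 oviduct, a difference of -0.44 (adjusted p = 0.00087). Oviduct was lower without overlap in both. The alpha ring subunit Psma4 read 8.94, 8.91 and 8.99 in oil uterus and 8.49, 8.49 and 8.48 in oil oviduct (-0.46, adjusted p = 7.94e-05), with -0.26 in E2 mice (adjusted p = 0.0059). Psmc5 read 7.03, 7.02 and 7.10 in oil oviduct, a difference of -0.59 from oil uterus (adjusted p = 0.000374), and did not pass in E2 mice (-0.23, adjusted p = 0.0891). Psma8 read 5.65, 5.09 and 5.02 in oil uterus and 4.33, 4.73 and 4.79 in oil oviduct, a difference of -0.64 (adjusted p = 0.0207) at levels near the background, with only oil uterus replicate 1 above the brightest Y-linked gene other than Sry.

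Psmf1, which encodes a proteasome inhibitor, was the 1 gene called higher in oviduct. It read 8.32, 8.39 and 8.05 in oil uterus and 8.89, 8.73 and 9.10 in oil oviduct, a difference of 0.65 (SE 0.10, adjusted p = 0.000335 by limma), or 0.46 without oil replicate 3 (adjusted p = 0.00106). It read 8.10, 8.15 and 8.18 in E2 uterus and 8.79, 8.83 and 8.85 in E2 oviduct, a difference of 0.68 (SE 0.10, adjusted p = 0.000313). Oviduct was higher on every array. The chaperone Psmg4 read 7.25, 7.28 and 7.31 in oil uterus and 6.99, 6.75 and 6.86 in oil oviduct, and 7.18, 7.26 and 7.21 against 6.79, 6.84 and 6.86 in E2 mice. It was lower in oviduct by -0.41 (adjusted p = 0.000514) and -0.39 (adjusted p = 0.00103). The 19S subunit Psmd7 read 8.69, 8.60 and 8.66 in E2 uterus and 8.21, 8.28 and 8.30 in E2 oviduct (-0.39, adjusted p = 0.00267). Psmd4, a ubiquitin receptor, read 7.73, 7.75 and 7.71 against 7.36, 7.35 and 7.51 (-0.33, adjusted p = 0.00337). The activator Psme4 read 9.62, 9.67 and 9.70 against 9.26, 9.34 and 9.30 (-0.36, adjusted p = 0.00124). In all 3 the E2 oviduct arrays lay below the E2 uterus arrays.

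**Figure D4:**
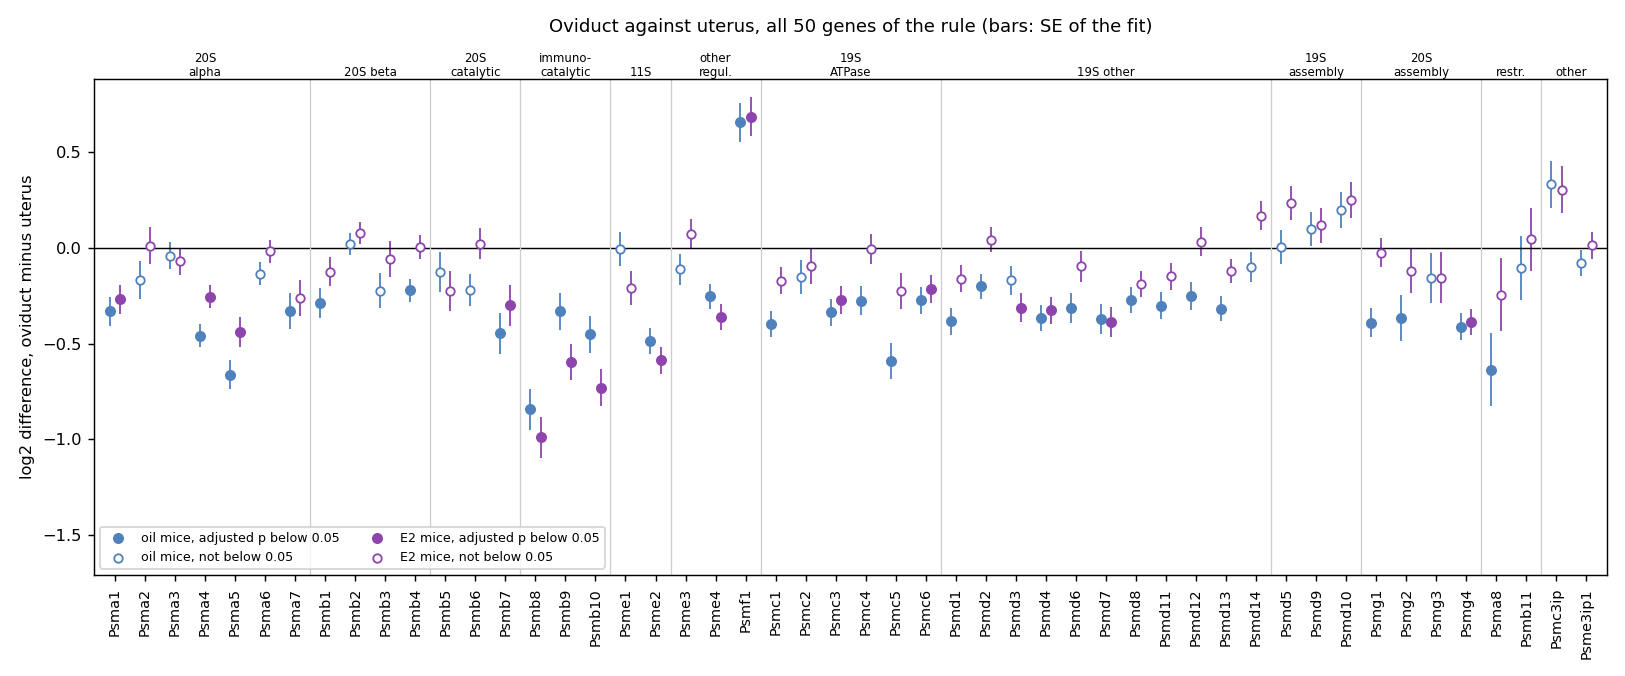
Log2 difference oviduct minus uterus (vertical axis, bars SE of the fit) in oil mice and in E2 mice for each of the 50 genes, ordered by role along the horizontal axis. Filled points have an adjusted p below 0.05. Most points lie below 0, Psmb8 is lowest in both treatments, and Psmf1 is the 1 gene filled above 0.

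Without oil replicate 3, 27 genes were lower in oviduct of oil mice, 25 of them among the 30, and Psmf1 was again the 1 higher, beside 19.3% lower and 17.4% higher of all genes. In E2 mice the count was then 18, of which 14 were among the 15, and 3 genes were higher (Psmf1, Psmc3ip and Psmd10), beside 22.1% lower and 17.3% higher of all genes. Markers of other cells differed between the tissues as well, in both directions. In the full data 21.5% of all genes were lower and 17.3% higher in oil mice, and 18.9% and 15.2% in E2 mice. Of 5 NK cell markers 5 were lower in oviduct in each treatment, with summed intensities of 376 to 950 in oil uterus, 801 to 1029 in E2 uterus, 199 to 249 in oil oviduct and 225 to 242 in E2 oviduct. General leukocyte markers were lower in 2 of 5 cases in oil mice and 3 of 5 in E2 mice, with sums of 1021 to 1719 in oil oviduct and 1805 to 2209 in E2 oviduct. MHC class II genes had a median of 0.42 in oil mice with 0 of 7 called, but 4 were higher and 1 lower without oil replicate 3. In E2 mice 2 of those 7 were lower. Epithelial markers were higher in oviduct of oil mice in 6 of 7 cases (median 1.31), and in E2 mice 1 was higher and 2 lower. Endothelial markers were lower in 5 of 5 cases in oil mice (median -1.08) and 4 of 5 in E2 mice. Interferon-stimulated genes were lower in oviduct in 2 of 16 cases and higher in 1 in oil mice, and lower in 9 of 16 in E2 mice. Macrophage markers were lower in oviduct in 2 of 9 cases in oil mice and 5 of 9 in E2 mice. Neutrophil markers were lower in 2 of 5 cases in each treatment. Of 5 smooth muscle markers 0 passed in oil mice and 3 were lower in E2 mice. In each treatment 1 of 5 T cell markers was lower and 0 of 3 B cell markers passed. The part of these cells in the tissue difference of the proteasome genes was not tested.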

How the data were processed

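RNA of flushed mouse uterus and oviduct was measured on 12 arrays in 4 groups of 3. The deposited values are intensities per probe set, summarised by the authors with RMA, according to the submitters' processing notes (per the labels). Which version of RMA was used is not stated there. The deposited intensity values proved linear and were log2 transformed here, with no further scaling and no filter on low values. Of 35556 probe sets, 21789 had 1 gene symbol, 1621 had several and 12146 had no listed gene. The single-symbol probe set with the highest mean stood for each of 19938 genes, and all 50 proteasome genes matched RefSeq by gene identifier. Of these, 5 had more than 1 probe set. Of 142 genes named in lists, 122 were measured.

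Group means of all 12 arrays were fitted in R 4.3.3 by lmFit and eBayes of limma 3.58.1. Tests were two-sided, p-values were adjusted by Benjamini-Hochberg across the 19938 genes, and genes with an adjusted p below 0.05 were called. The scripts were tested on simulated data. Replicates were not blocked. The number of arrays limits the precision. Members, lists and alternatives were chosen with earlier results of these data known, and the catalytic pair ratios were added later. Values on every array were given for the 5 immunoproteasome genes, Psmb5, Psmb6, Psmb7 and, per comparison, up to 6 other genes past the test with the largest differences; lists name up to 4 genes past the test. Canx, Vcp, Ifng and Nfe2l1 were named after their values were seen. Promoter windows are those of RefSeq on GRCm38.p6. Alternatives were other scalings, probe set rules, variance models, array weights, blocks, filters, thresholds and left-out arrays. Some genes of the platform are not reported here.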

Additional observations from a re-analysis of the deposited data

Results flagged for a closer look

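Psmg1, which encodes a chaperone of 20S core assembly, was the 1 proteasome gene whose E2 effect differed between the tissues by a test of the difference itself. Its E2 effect was -0.40 in uterus (SE 0.08, higher in 3 of 3 oil arrays than in any E2 array) and -0.03 in oviduct (SE 0.08), and the difference, oviduct minus uterus, was 0.36 (SE 0.11, adjusted p = 0.047 by limma over all genes). Leaving out any of 11 of the 12 arrays ended the call, oil uterus replicate 2 being the exception.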

How the results depend on the processing

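For the E2 comparison in uterus, the 4 genes that rose became 1 at an adjusted p below 0.01, 2 with each tissue fitted alone and 2 without both oil replicate 3 arrays, and 1 to 4 when each array was left out in turn. The 15 that fell became 25 with array weights and 13 to 18 with single arrays left out. Of these 19 genes, 12 kept direction and call under every alternative run. Psmb8 kept its call in 8 of 22 alternatives. It was lost in 9 of 12 fits with an array left out, including each oil oviduct array, and with arrays centred on their median or a fixed block.

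In oviduct 0 genes passed under any setting. The interaction's 1 higher gene became 0 at an adjusted p below 0.01, without both oil replicate 3 arrays and with a fixed replicate block, 2 among genes above the median level, 6 with array weights, and 0 to 1 with single arrays left out.

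For oviduct against uterus in E2 mice, the 1 higher gene became 5 with array weights, and 3 with centred arrays, quantile normalization, trend and robust eBayes, E2 mice fitted alone, genes above the median level, either replicate block, or without both oil replicate 3 arrays, and 1 to 3 with single arrays left out; the 15 lower became 23 with array weights and 11 to 17 with single arrays left out. In oil mice the 1 higher became 2 with array weights or the random replicate block and 1 to 2 with single arrays left out, and the 30 lower 26 to 30. No called gene reversed. Some genes not called did change sign without oil replicate 3. Examples, not a full list, were Psme1 in oviduct (from 0.08 to -0.01) and Psme4 in uterus (from -0.00 to 0.05). The causes were not tested.

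Whether equal replicate numbers share a mouse is not given in the sources used here. Correlations of their deviations from the group means ran from 0.0045 to 0.26 between uterus and oviduct of the same treatment, all above 0. Replicate 3 of oil mice and replicate 1 of E2 mice were highest, each at 0.26. Between oil and E2 arrays of a tissue, which cannot share a mouse, they ran from -0.20 to 0.19. These values do not settle the pairing, and no pairing was used in the main fit. Interferon-stimulated and MHC class II genes were low in oil replicate 3 of both tissues. The random replicate block had a consensus correlation of 0.099. With 3 arrays a group and small differences, a missed threshold does not show that a gene was level. Genes near the background, such as Psma8 and Psmb11, have limited signal.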
